A study of Drosophila melanogaster with 33 samples.

Results

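Atx2ΔcIDR and Lsm+LsmAD are altered forms of the Drosophila RNA-binding protein Ataxin-2 (Atx2) that carry the editing domain used in TRIBE, and they are compared here with each other. The members were the 2 Atx2ΔcIDR and 2 Lsm+LsmAD brain libraries, 4 of the 12 TRIBE libraries with a list of edited positions, and every position listed in them: 260 positions in at least 1 of these 4 libraries, of 1984 in at least 1 of all 12. In the Atx2ΔcIDR flies the full-length protein lacked its C-terminal intrinsically disordered region (cIDR). In the Lsm+LsmAD flies the transgene held only 2 folded domains, the Like-Sm domain (Lsm) and its associated domain (LsmAD), so that fragment lacked the middle disordered region, the PAM2 motif and the cIDR together. All TRIBE flies kept their own Atx2 gene, carried the transgene under UAS control at a fixed site on the second chromosome, and expressed it in neurons of the adult brain through elav-Gal4, with a temperature-sensitive tub-Gal80 holding it off until adulthood. Each library was made from pooled brains of young adults after several days at the higher temperature, which inactivates this Gal80. The labels do not say how replicates were separated, so every test below measures the spread between these libraries only. The other TRIBE groups, used for reference, were Atx2ΔmIDR, Atx2ΔLsmAD, Atx2ΔLsm and wild-type Atx2 (Atx2 WT), with 2 libraries each. RNA levels came from brains of flies with an Atx2 RNAi construct and of Gal4 control flies. The RNAi flies also carried elav-Gal4 and the temperature-sensitive tub-Gal80, and spent several days at the higher temperature as adults. The Atx2 WT libraries were not strand-specific and had longer reads than the altered forms, so a difference between an altered form and Atx2 WT cannot be told apart from a difference in library type.

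In TRIBE, an RNA-binding protein carries the catalytic domain of ADAR, an enzyme that deaminates adenosine in RNA. A-to-G changes that are absent from control RNA are taken to mark the transcripts the fusion came close to. Whether the fusion made each listed change was not tested here. The edit percent is the share of reads at a position that carry the change. Ataxin-2 is conserved from yeast to humans; its PAM2 motif binds the poly(A)-binding protein, its Lsm and LsmAD domains are folded, and its disordered regions take part in the assembly of RNA granules. In flies it is known for controlling translation of the clock gene period and for roles in long-term memory.

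Primers of the study that built the 2 forms are shown here because they mark where each construct departs from full-length Atx2, a gene on chromosome 3R. In the pair used for the cIDR deletion, the capitals mark the 15 bases with which each primer is the reverse complement of the other. In the forward primer of Lsm+LsmAD, only the 19 bases it shares with the forward primer of another Lsm construct are shown, and the capitals mark an ATG that stands in frame with the start codon the primer adds.
cIDR R: CGGTACATGTCCTCCcgtgg
cIDR F, first 20 bases: GGAGGACATGTACCGgccac
Lsm+LsmAD F, shared run: ttcATGcactcggccacgg

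The Atx2ΔcIDR libraries listed 88 and 116 positions, against 96 and 87 positions in the Lsm+LsmAD libraries. The counts of the 2 forms overlapped, and their difference of 10.5 positions was smaller than the spread between the Atx2ΔcIDR libraries (102 ± 19.8 for Atx2ΔcIDR and 91.5 ± 6.36 for Lsm+LsmAD, SD, n = 2 each; exact permutation test, two-sided, p = 0.667). With 2 libraries against 2 this test cannot give a p below 0.333. The other altered forms listed between 286 and 940 positions per library, and Atx2 WT listed 512 and 471. The lists hold no read numbers, so the depth behind each edit percent is unknown, and a position that is not listed may have been edited below the minimum of 15% or read too rarely.

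The median edit percent was 21.6% and 20% in the Atx2ΔcIDR libraries, against 29.4% and 23.7% in the Lsm+LsmAD libraries. The groups did not overlap, and the mean difference was -5.76 percentage points (exact permutation test, two-sided, p = 0.333, the smallest this design allows). Positions under 20% made up 38.6% and 49.1% of the Atx2ΔcIDR lists and 19.8% and 31.0% of the Lsm+LsmAD lists. Among positions at 30% or more the order turned round, with a difference of 2.94 points.

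**Figure D1:**
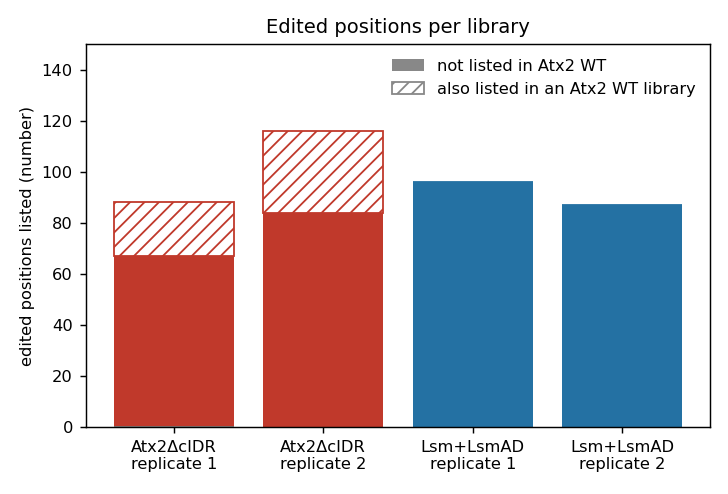
Number of edited positions listed in each library; the hatched part was also listed in at least 1 Atx2 WT library. The hatched part was 21 and 32 positions in Atx2ΔcIDR and 0 in both Lsm+LsmAD libraries.

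In Atx2ΔcIDR, 47 positions in 40 genes were listed in both libraries, 29.9% of the 157 positions listed in either (Wilson 95% interval 23.3 to 37.5%). In Lsm+LsmAD, 42 positions in 37 genes were common, 29.8% of 141 (22.9 to 37.8%). Both shares lay below the 46.5% of Atx2 WT (42.8 to 50.3%), while the other altered forms had 32.4 to 35.5%. These intervals cover counting error over positions, which share genes and libraries. At common positions the replicates differed by a median of 2.90 percentage points in Atx2ΔcIDR and 6.55 points in Lsm+LsmAD.

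Few positions were shared between the forms. A total of 5 positions were listed in all 4 libraries, which was 10.6% of the common positions of Atx2ΔcIDR and 11.9% of those of Lsm+LsmAD. Counting a position once it appeared in 1 library of a form, 38 were shared, 24.2% of the Atx2ΔcIDR and 27.0% of the Lsm+LsmAD positions. None of these 38 was listed in Atx2 WT, 29 were listed in a library of another altered form, and 34 lay on chromosome 3. The overlap between single libraries was uneven: Atx2ΔcIDR replicate 1 shared 9 positions with Lsm+LsmAD replicate 1 and 20 with replicate 2, and Atx2ΔcIDR replicate 2 shared 19 and 21. Of the 16 positions listed in 3 of the 4 libraries, 9 were missing from Lsm+LsmAD replicate 1 and 0 from Lsm+LsmAD replicate 2. Without Lsm+LsmAD replicate 1, 14 positions were common to both forms.

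The 5 shared positions fell in 4 places in the genome (dm6 coordinates as deposited, regions from the Ensembl annotation of that assembly). A pair lay in the coding sequence of CG12093 on chromosome 3L (gene 2772560 to 2774007, minus strand). At position 2773176 the edit percent was 17.5% and 23.4% in Atx2ΔcIDR, against 32.6% and 27.3% in Lsm+LsmAD. At position 2773218 it was 16.1% and 16.9% in Atx2ΔcIDR, against 22.4% and 28.2% in Lsm+LsmAD. Both Atx2ΔcIDR libraries were below both Lsm+LsmAD libraries at each. These positions were also listed in all 6 libraries of the other altered forms and in no Atx2 WT library. There the edit percent was 21.7 to 43.6% at 2773176 and 18.5 to 39.4% at 2773218. CG12093 carried 3 common positions in Atx2ΔcIDR and 4 in Lsm+LsmAD, all in its coding sequence.

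E2f (now E2f1), a transcription factor that drives genes of the cell cycle, had the next shared position in its 5′UTR, 3R position 21632284 (gene 21620304 to 21660871, minus strand). In the longest transcript of the gene this position is intronic. The edit percent was 21.4% and 22.7% in Atx2ΔcIDR, against 15.4% and 17.4% in Lsm+LsmAD, so both Atx2ΔcIDR libraries were the higher ones. It was listed in none of the other 8 TRIBE libraries.

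The position at 3R 22764851 is intronic in 2 overlapping annotated genes, Usp12-46, a deubiquitinase, and CG7029, and reads from the 2 cannot be told apart where the genes overlap. Its edit percent was 59.7% and 15.8% in Atx2ΔcIDR, against 24.3% and 22.8% in Lsm+LsmAD. It was listed in none of the other 8 TRIBE libraries. A nearby position, 22765163, had 53.1% in Atx2ΔcIDR replicate 1, against 26.3% and 28.6% in Lsm+LsmAD. CG4721, on the opposite strand, had 28.3% in Atx2ΔcIDR replicate 1 at 22764648, against 18.1% and 15.7% in Lsm+LsmAD. This gene (22763960 to 22766172) also spans 22764851 and 22765163, though the lists do not name it there. At 22764851 the Atx2ΔcIDR replicates lay on either side of both Lsm+LsmAD libraries, and without Atx2ΔcIDR replicate 1 the difference was -7.75 points in place of 14.2. The last shared position was in the 3′UTR of CG42450, X position 18828308, with 18.4% and 20% in Atx2ΔcIDR, against 16.5% and 18.4% in Lsm+LsmAD. These values touched at 18.4%. The CG42450 position was also at 16.9% and 23.3% in Atx2ΔmIDR, and in no library of Atx2ΔLsmAD, Atx2ΔLsm or Atx2 WT.

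At 3 of the 5 shared positions the libraries of the forms did not overlap (60.0% of those compared), 2 with Atx2ΔcIDR lower and 1 with it higher. In limma's moderated test none of the 5 passed an adjusted p of 0.05 (0.00%), and 2 had an unadjusted p under 0.05. The differences were -9.50 ± 3.51 points (SE) and -8.80 ± 2.79 points for CG12093 and 5.65 ± 1.79 points for E2f, each with an adjusted p of 0.117 from limma. For CG42450 the 95% interval of the difference ran from -3.89 to 7.39 points, and for Usp12-46 from -40.5 to 68.9 points. With a mean-variance trend in the same limma fit, the position 2773218 of CG12093 and that of E2f passed (adjusted p = 0.0364 for both, where the alternatives of these positions ranged up to 0.401). Without Atx2ΔcIDR replicate 2, which left 1 library assumed to vary like the others, 2 other positions passed, that of Usp12-46 and 2773176 of CG12093.

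Relaxing the rule to positions listed in at least 3 of the 4 libraries, which was chosen after the data were seen and left the missing library out of that position's fit, gave 21 positions, and limma again called none (0.00%). In ps (pasilla), an RNA-binding regulator of splicing, the coding position was at 43.4% and 45.6% in Atx2ΔcIDR, against 24.1% in Lsm+LsmAD replicate 2. In Glut4EF, a transcription factor, the 3′UTR position was at 56.5% and 42.4% in Atx2ΔcIDR, against 29.2%. In alpha-Man-II, a Golgi mannosidase that trims N-glycans, the 3′UTR position was at 45.5% and 38.6% in Atx2ΔcIDR, against 17.9%. Each of these was below its Atx2ΔcIDR libraries in Lsm+LsmAD replicate 2 and was not listed in Lsm+LsmAD replicate 1. CG32350 (Vps11), a subunit of the complexes that tether membranes to lysosomes, went the other way, with 20% in Atx2ΔcIDR replicate 2, against 38.1% and 37.5% in Lsm+LsmAD. CASK, a scaffold of the synaptic membrane, had 2 such 3′UTR positions, where the long non-coding gene CRG overlaps it. In Dop1R2, a dopamine receptor, the 3′UTR position 29630387 was at 15% in both Atx2ΔcIDR libraries, against 17.4% in Lsm+LsmAD replicate 2. That position was listed in no other library, while the gene had a common position elsewhere in Atx2 WT.

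**Figure D2:**
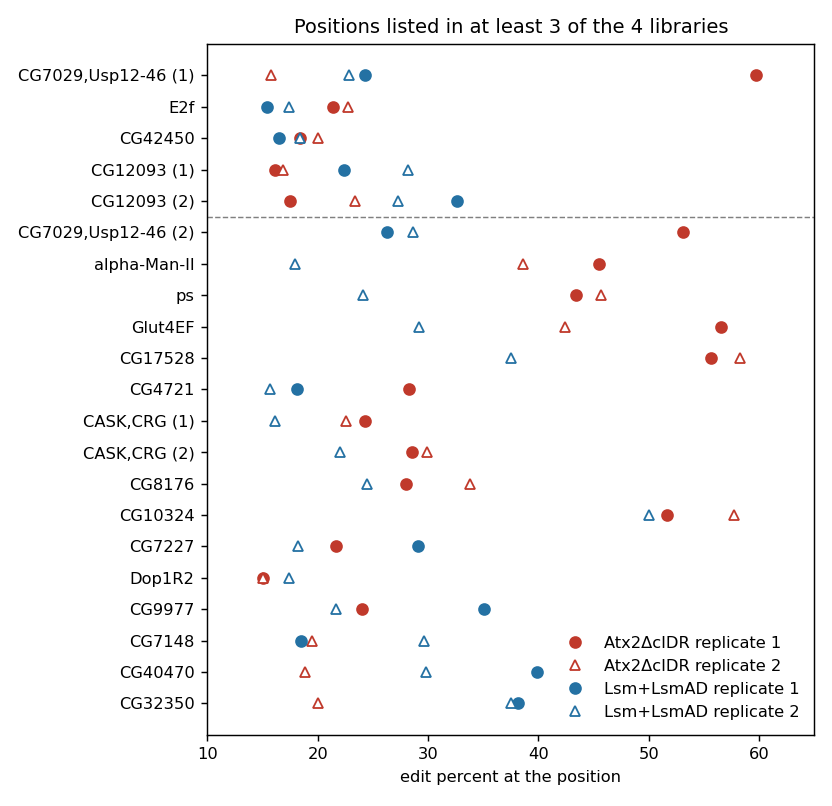
Edit percent at the 21 positions listed in at least 3 of the 4 libraries, one row per position; colours give the form and symbols the replicate, and the dashed line separates the 5 positions listed in all 4 libraries. Below the line, 9 of the 16 positions have no point for Lsm+LsmAD replicate 1.

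The forms differed in how much of their lists Atx2 WT also held. In Atx2ΔcIDR, 23.9% and 27.6% of the positions of each library were listed in at least 1 Atx2 WT library, against 0% in both Lsm+LsmAD libraries (exact permutation test, two-sided, p = 0.333, the smallest this design allows). Of the common positions, 12 of 47 in Atx2ΔcIDR were in Atx2 WT (25.5%, Wilson 95% interval 15.3 to 39.5%) and 0 of 42 in Lsm+LsmAD (0 to 8.38%). The other altered forms shared 58.4 to 64.1% of their common positions with Atx2 WT. Positions of Lsm+LsmAD were not private to it, as 31 of its 42 common positions were listed in Atx2ΔmIDR, Atx2ΔLsmAD or Atx2ΔLsm, 26 of them in Atx2ΔmIDR. Of the 35 common Atx2ΔcIDR positions outside Atx2 WT, 23 were listed in those 3 forms.

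Neuropeptide genes, whose products are the secreted signals of the nervous and endocrine system, were in the Atx2ΔcIDR lists and not in the Lsm+LsmAD lists. Of 50 neuropeptide and peptide hormone genes, 2 had a common position in Atx2ΔcIDR and 0 in Lsm+LsmAD, against 14 in Atx2 WT. The genes with a common position numbered 40 in Atx2ΔcIDR, 37 in Lsm+LsmAD and 256 in Atx2 WT. In the other altered forms the list genes were 9 of 162 (Atx2ΔmIDR), 8 of 178 (Atx2ΔLsmAD) and 11 of 403 (Atx2ΔLsm). The counts thus come from lists of unlike length, and the shares were not tested. Either library of Atx2ΔcIDR held 4 (Akh, NPF, natalisin and Lk) and either library of Lsm+LsmAD held 0. Akh, adipokinetic hormone, is made by endocrine cells of the corpora cardiaca and mobilises energy stores. Its 3′UTR (gene 3L, 4141467 to 4142070, plus strand) carried 4 common positions in Atx2ΔcIDR. At 4142020 the edit percent was 65.2% and 62.2% in Atx2ΔcIDR, against 80.4% and 79.0% in Atx2 WT, which were the highest values of the Atx2 WT libraries. At 4141911 it was 26.8% and 24.6% in Atx2ΔcIDR, against 36.6% and 41.0% in Atx2 WT. At 4141932 the groups overlapped, with 18.2% and 16.6% in Atx2ΔcIDR and 17.7% and 21.8% in Atx2 WT. The fourth position, 4142009, had 18.6% and 16.9% in Atx2ΔcIDR and was not listed in Atx2 WT.

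NPF, neuropeptide F, which is known for its part in feeding behaviour, was the member whose level differed most from Atx2 WT. Its 3′UTR position at 3R 16611268 was at 17.5% and 18.0% in Atx2ΔcIDR, against 55.1% and 56.9% in Atx2 WT. In the 6 libraries of the other altered forms it was at 41.8 to 67.9%, all above Atx2ΔcIDR. The neighbouring position 16611318 was listed only in Atx2ΔcIDR replicate 2, at 15.2%, against 41.5% and 48.5% in Atx2 WT.

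Of the 9 positions common to Atx2ΔcIDR and Atx2 WT, 9 had a lower mean in Atx2ΔcIDR and 8 were lower without overlap (88.9%). The share lower without overlap was 37.1% of 116 positions for Atx2ΔmIDR, 39.3% of 117 for Atx2ΔLsmAD and 11.4% of 202 for Atx2ΔLsm. The median difference from Atx2 WT was -16.0 percentage points for Atx2ΔcIDR, against -4.48 points for Atx2ΔmIDR, -3.73 points for Atx2ΔLsmAD and 3.95 points for Atx2ΔLsm. The minimum of 15% applies to both groups, so only positions still above it in Atx2ΔcIDR could enter. Beside Akh and NPF, the 9 included Ccn, a secreted matrix protein, with 20.3% and 19.6% in Atx2ΔcIDR, against 43.2% and 45.9% in Atx2 WT. They also included Taf6, a subunit of the general transcription factor TFIID, with 15.4% and 19.0% in Atx2ΔcIDR, against 31.1% and 38.7% in Atx2 WT, and Bub3, a spindle checkpoint protein, with 15% and 30.8%, against 47.4% and 45.5%.

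**Figure D3:**
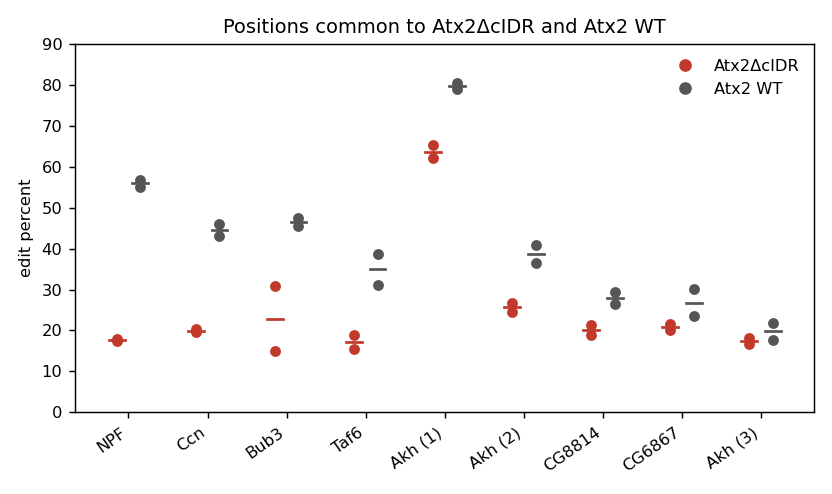
Edit percent at the 9 positions common to Atx2ΔcIDR (left of each pair) and Atx2 WT (right); each point is a library and each bar the mean of 2. At 8 of the 9 both Atx2ΔcIDR libraries lie below both Atx2 WT libraries.

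The other fixed lists, of monoamine transporters, Adar substrates and synaptic vesicle genes, had no common position in either form. The vesicular transporter gene Vmat, which loads monoamines into synaptic vesicles, was listed in neither form, while all 4 monoamine transporters (Vmat, SerT, DAT and prt) had a common position in Atx2 WT and Atx2ΔmIDR. The vesicular transporter gene prt had 3 positions in Atx2ΔcIDR replicate 2 only, at 19.6%, 36.1% and 17.2%. Of 22 known substrates of the endogenous Adar enzyme, 2 were listed in each form and 0 in both libraries of either. These were slo, a calcium-activated potassium channel, and Atpalpha, the sodium pump. The intronic position of Atpalpha had 26.8% in Atx2ΔcIDR replicate 2, against 61.2% in Lsm+LsmAD replicate 1, and it was listed in all 6 libraries of the other altered forms and in no Atx2 WT library. Of 20 synaptic vesicle genes, prt was the 1 listed in Atx2ΔcIDR, against 0 in Lsm+LsmAD and 5 in either library of Atx2 WT. Over all genes, 132, 119 and 522 were listed in either library of these forms, in that order.

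Of the 40 genes with a common position in Atx2ΔcIDR, 26 (65%) had no position in either Lsm+LsmAD library, and 10 of the 26 were listed in Atx2 WT. Of the 37 genes of Lsm+LsmAD, 25 (67.6%) had no position in either Atx2ΔcIDR library, and 2 of the 25 (CG6707 and CG14186) were listed in Atx2 WT, at other positions. These counts rest on the rule for listing. Atx2ΔcIDR-only genes numbered 67 without Atx2ΔcIDR replicate 1, 55 without Atx2ΔcIDR replicate 2, 15 at a minimum of 20% and 8 at 30%. Lsm+LsmAD-only genes numbered 52 without Lsm+LsmAD replicate 1, 56 without Lsm+LsmAD replicate 2, 26 at a minimum of 20% and 13 at 30%.

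Among the 26 Atx2ΔcIDR genes, the highest level was in Ncc69, a sodium-potassium-chloride cotransporter, whose coding position at 3L 12368830 had 67.3% and 68.7%, close replicates. Elsewhere it was listed only in Atx2ΔmIDR replicate 2, at 37.1%. After Akh came CG10616 with 43.3% and 42.6%, and Klp68D, a subunit of the kinesin-2 motor, with 25.0% and 37.8%. Enzymes of metabolism included Gk (now Gk2), a glycerol kinase with 2 common positions, the higher at 38.8% and 23.5%, and Aprt, adenine phosphoribosyltransferase, at 30.8% and 15.2%. Patj, a partner of the Crumbs polarity complex, had 31.8% and 30%. CG12082 (Usp5), a ubiquitin-specific protease, had 2 common positions, the higher at 30% and 30.4%, and CG5687 also had 2. CG10907, CG6024 (loaf) and CG6125 completed the 10 highest, with means of 29.7 to 30.6%. The positions of Klp68D and CG6024 were each listed in 4 libraries of the other altered forms, and those of CG10907, CG12082 and CG6125 in none.

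Among the 25 Lsm+LsmAD genes, Pxn, a peroxidase of the extracellular matrix, was highest, with 62.5% and 47.6% at 3L 2603619 in its coding sequence. That position was also at 52.8% and 35% in Atx2ΔmIDR and at 78% in Atx2ΔLsm replicate 1. Secreted TGF-beta family ligands came next, myo (myoglianin) with 34.9% and 53.4% and mav (maverick) with 37.5% and 42.2%. The mitochondrial ribosomal protein gene mRpS35 had 52.5% and 23.7%, replicates that lay far apart. The transcription factor gene NfI had 35.1% and 40.9% and Thd1 (Tdg), a thymine DNA glycosylase, had 29.6% and 41.9%. CG16758, CG17698, CG6707 and CG2747 completed the 10 highest, with means of 35 to 36.9%. The positions of all 10 were also listed in a library of another altered form, that of CG16758 at 45.35% in Atx2ΔmIDR replicate 1. Those of NfI, Thd1, mav and myo were in Atx2ΔmIDR replicate 2, at 17.1 to 26.9%. Genes with 2 common positions were A2bp1 (Rbfox1), an RNA-binding regulator of splicing, CG34127 (Nlg3), a neuroligin that joins synaptic membranes, and CG45186 (Svil), related to the actin-binding protein supervillin. The 2 positions of CG34127 had 35% and 33.3%, and 18.1% and 18.3%.

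Of the 4 libraries, Atx2 itself was listed in those of Lsm+LsmAD, with 34.0% and 27.3% at 3R 15412911, in exon 3 of 5 and in its coding sequence (gene 15408423 to 15417277, plus strand). This position was listed in none of the other 10 TRIBE libraries, while the Atx2ΔLsm libraries listed Atx2 at other positions. All TRIBE flies carry Atx2 coding sequence in the transgene as well as their own gene, and reads of the 2 cannot be told apart in these lists.

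The positions of both forms were concentrated on chromosome 3. In Atx2ΔcIDR, 43 of 47 common positions lay there (91.5%, Wilson 95% interval 80.1 to 96.6%), and in Lsm+LsmAD 35 of 42 did (83.3%, 69.4 to 91.7%), against 156 of 312 in Atx2 WT (50%, 44.5 to 55.5%). The share was 64.6% in Atx2ΔmIDR, 65.3% in Atx2ΔLsmAD and 54.4% in Atx2ΔLsm. Chromosome 4 held 4 Lsm+LsmAD positions (NfI, Thd1, mav and myo) and 0 Atx2ΔcIDR positions. The second chromosome, which carries the transgenes, held 2 Atx2ΔcIDR positions and 1 Lsm+LsmAD position. Between the forms, the share of each list on chromosome 3 was 79.5% and 80.2% in Atx2ΔcIDR, against 88.5% and 80.5% in Lsm+LsmAD (exact permutation test, two-sided, p = 0.333, the smallest this design allows). Of common positions in neither Atx2 WT library, 94.3% were on chromosome 3 in Atx2ΔcIDR and 83.3% in Lsm+LsmAD. That share was 93.0% in Atx2ΔmIDR, 89.8% in Atx2ΔLsmAD and 60.3% in Atx2ΔLsm, so it was not particular to the 2 forms compared.

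**Figure D4:**
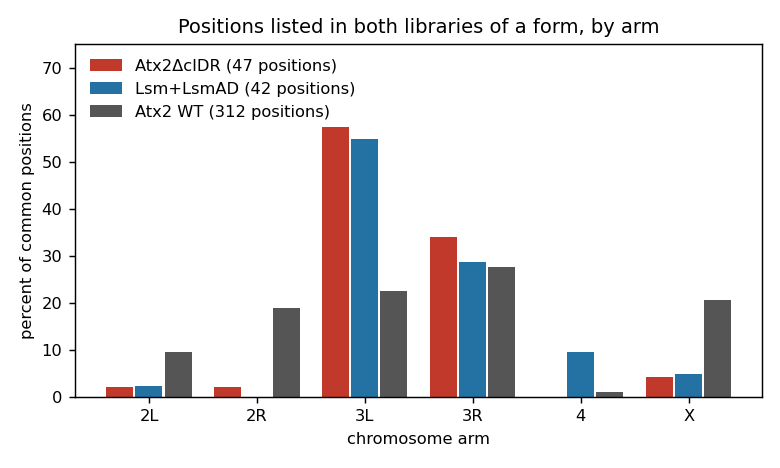
Percent of common positions on each chromosome arm, for Atx2ΔcIDR, Lsm+LsmAD and Atx2 WT. Arms 3L and 3R together hold 91.5% in Atx2ΔcIDR and 83.3% in Lsm+LsmAD, against 50% in Atx2 WT.

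Some positions ran in groups of neighbouring genes. Taking runs of common positions at most 200 kb apart that touched at least 3 genes, a rule chosen after the data were seen, Lsm+LsmAD had a run of 13 positions in 9 genes within 318 kb of 3L (2463178 to 2781005). It covered CG45186, CG16758, Pxn, MEP-1 with the overlapping CG42245, CG9977, CG12093, Atg2 and mRpS35. None of the 13 was in Atx2 WT, 10 were in Atx2ΔmIDR, 9 in Atx2ΔLsm, 4 in Atx2ΔLsmAD and 3 in an Atx2ΔcIDR library. Atx2ΔcIDR had a different run of 7 positions in 5 genes within 191 kb of 3L (1744013 to 1935409), covering Gk, Patj, Aprt, CG1887 and CG5687. None of the 7 was in Atx2 WT or in Lsm+LsmAD, while 4 were in Atx2ΔLsmAD, 2 in Atx2ΔLsm and 1 in Atx2ΔmIDR. Another Atx2ΔcIDR run on 3L (11734471 to 11797297) covered CG6024, CG10907 and Klp68D. The Atx2ΔcIDR run on 3R (9416763 to 9525980) covered alpha-Man-II, ps and CG8176, and all 3 were in Lsm+LsmAD replicate 2. A further Lsm+LsmAD run of 3 positions lay on chromosome 4 (Thd1, mav and myo). Over all chromosomes, 13 of 47 Atx2ΔcIDR and 16 of 42 Lsm+LsmAD common positions were in such runs (27.7% and 38.1%), beside 93 of 312 in Atx2 WT (29.8%), a longer list. With gaps of at most 100 kb, the Lsm+LsmAD run on 3L was reduced to 8 positions in 4 genes within 11.2 kb (2769795 to 2781005), and the Atx2ΔcIDR runs stayed as they were. Such runs then held 27.7% of the Atx2ΔcIDR and 26.2% of the Lsm+LsmAD common positions, beside 36 of 312 in Atx2 WT (11.5%). These differences were not tested.

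By region, coding sequence held the largest share of the common positions in both forms. The 3′UTR did in Atx2 WT and in the other altered forms. It held 64.1% in Atx2ΔmIDR, 54.5% in Atx2ΔLsmAD and 64.9% in Atx2ΔLsm, where coding sequence held 29.8%, 36.0% and 30.1%. In Atx2ΔcIDR 26 of 47 were in coding sequence (55.3%, Wilson 95% interval 41.2 to 68.6%) and 19 in a 3′UTR (40.4%, 27.6 to 54.7%). In Lsm+LsmAD 26 of 42 were in coding sequence (61.9%, 46.8 to 75%) and 9 in a 3′UTR (21.4%, 11.7 to 35.9%). In Atx2 WT 25.0% were in coding sequence (20.5 to 30.1%) and 69.2% in a 3′UTR (63.9 to 74.1%). These intervals cover counting error only, over positions that share genes, runs and libraries, and no test of the difference between forms was made on them. Within Atx2ΔcIDR, 8 of the 12 positions also in Atx2 WT were in a 3′UTR, against 11 of the 35 that were not.

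Brain RNA-seq of flies with an Atx2 RNAi construct driven in adult neurons by elav-Gal4 (Atx2 RNAi) and of Gal4 control flies, with 3 libraries each and 11169973 to 14324466 counts in genes per library, gave the levels of the edited genes as CPM, each count scaled to the size of its library times its TMM normalisation factor. Atx2 itself had 202, 251 and 264 CPM in Atx2 RNAi brains, against 281, 304 and 318 CPM in Gal4 control brains. The groups did not overlap, but the log2 fold change of -0.34 ± 0.12 (SE) had an adjusted p of 0.058 in edgeR's quasi-likelihood test. With library size alone as the scaling the groups overlapped (225, 268 and 276 CPM in Atx2 RNAi brains, against 258, 291 and 292 CPM in Gal4 control brains) and the log2 fold change was -0.13 (adjusted p = 0.35). It was -0.22 (adjusted p = 0.12) without Atx2 RNAi replicate 1, and -0.39 with DESeq2's Wald test (adjusted p = 0.014), over a range of 0.014 to 0.35 for its alternatives. Neuron markers summed to 6060 to 7444 CPM in Atx2 RNAi brains, against 10830 to 13110 CPM in Gal4 control brains, with 4 of 5 called lower. Fat body markers summed to 6480 to 19820 CPM in Atx2 RNAi brains, against 23.5 to 233 CPM in Gal4 control brains, with 5 of 5 tested called higher. Hemocyte markers summed to 349.8 to 499.6 CPM in Atx2 RNAi brains, against 42.9 to 58.4 CPM in Gal4 control brains (2 of 2 tested higher), and muscle markers to 53.0 to 70.8 CPM, against 246 to 279 CPM (4 of 4 lower). Glia markers summed to 4294 to 5257 CPM, against 6216 to 7360 CPM (1 higher and 3 lower of 6), and photoreceptor markers to 1146 to 1494 CPM, against 976 to 1011 CPM (3 of 5 higher). Lines naming no gene held 34.6% of the counts in Gal4 control replicate 1 and 15.9 to 17.7% in the other 5 libraries. In bulk RNA, fewer cells of a type and less RNA per cell cannot be told apart, and the part of these shifts in the values below was not tested.

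Across all 9197 genes tested, edgeR called 23.1% higher and 18.6% lower in Atx2 RNAi at an adjusted p under 0.05, with a median log2 fold change of 0.06. Of the 39 tested Atx2ΔcIDR genes, 10 were higher and 5 lower (25.6% and 12.8%), with a median of 0.13. Of the 34 tested Lsm+LsmAD genes, 8 were higher and 9 lower (23.5% and 26.5%), with a median of 0.01. With library size alone as the scaling, the median of all genes was 0.27 and 33.9% were called higher and 10.2% lower, with 17 higher and 4 lower among Atx2ΔcIDR genes and 12 and 6 among Lsm+LsmAD genes. With DESeq2 size factors the Lsm+LsmAD median was -0.05. Among the 247 tested Atx2 WT genes, 8.91% were higher and 40.1% lower, with a median of -0.25. Without Atx2 RNAi replicate 1 5 Atx2ΔcIDR genes were higher and 3 lower (12.8% and 7.69%), beside 14.8% and 12.5% of all genes in that fit. Without Atx2 RNAi replicate 3 they were 6 and 3, beside 15.4% and 12.2% of all genes. They were 7 and 3 without Atx2 RNAi replicate 2, beside 16.5% and 13.4%, and also without Gal4 control replicate 3, beside 17.6% and 14%. Without Gal4 control replicate 1 they were 11 and 8, beside 23.0% and 19.4%. For Lsm+LsmAD genes leaving out 1 library gave 7 to 9 higher and 6 to 10 lower, beside 14.8 to 23.0% and 12.2 to 19.4% of all genes.

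Single genes moved in both directions. Of Atx2ΔcIDR genes, CG1887 (dsb), a scavenger receptor of the CD36 family, had 21.1, 23.5 and 35.5 CPM in Atx2 RNAi brains, against 3.21, 4.51 and 3.86 CPM in Gal4 control brains, a log2 fold change of 2.78 ± 0.24 (edgeR adjusted p = 0.00039). CG6125 rose by 1.77 ± 0.15 and CG5687 by 1.16 ± 0.09 on the log2 scale. Akh had 154, 39.4 and 81.9 CPM in Atx2 RNAi brains, against 29.9, 46.2 and 27.6 CPM in Gal4 control brains. These groups overlapped, and its log2 fold change of 1.40 ± 0.45 (edgeR adjusted p = 0.040) was 0.81 (adjusted p = 0.13) without Atx2 RNAi replicate 1; leaving out Atx2 RNAi replicate 3, Gal4 control replicate 1 or Gal4 control replicate 3 ended the call too. NPF had 78.0, 75.5 and 75.6 CPM in Atx2 RNAi brains, against 62.7, 44.9 and 38.6 CPM in Gal4 control brains, a log2 fold change of 0.64 ± 0.18 (edgeR adjusted p = 0.025). That call was lost in 5 of the 6 fits that left out a library, in which the log2 fold change was 0.49 to 0.65 and the adjusted p 0.062 to 0.083. The exception was the fit without Gal4 control replicate 1 (0.87, adjusted p = 0.0013). CG6024 fell by 0.76 on the log2 scale.

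Of Lsm+LsmAD genes, CG7227 rose by 3.07 ± 0.49, CG4721 (Nepl15), related to the metalloprotease neprilysin, by 2.44 ± 0.27, CG16758 by 1.66 ± 0.18 and Gip by 1.41 ± 0.14 on the log2 scale. CG34127, the neuroligin, fell by 0.71. Thd1 fell by 0.93 (edgeR adjusted p = 0.020), a call that was lost without Atx2 RNAi replicate 1 (-0.76, adjusted p = 0.072), without Atx2 RNAi replicate 3 (-0.98, adjusted p = 0.052) and with the replicate number as a block (-0.90, adjusted p = 0.062). Of the genes with a position in all 4 TRIBE libraries, CG42450 had 525, 690 and 690 CPM in Atx2 RNAi brains, against 1193, 1039 and 1151 CPM in Gal4 control brains, and fell by 0.83 on the log2 scale. CG12093 rose by 0.50 ± 0.10, with 23.7, 22.9 and 24.7 CPM in Atx2 RNAi brains, against 16.7, 17.5 and 16.1 CPM in Gal4 control brains. The other genes that the lists name at shared positions did not pass: E2f had a log2 fold change of 0.18 (edgeR adjusted p = 0.19), Usp12-46 of 0.09 (adjusted p = 0.58) and CG7029 of -0.35 (adjusted p = 0.067).

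**Figure D5:**
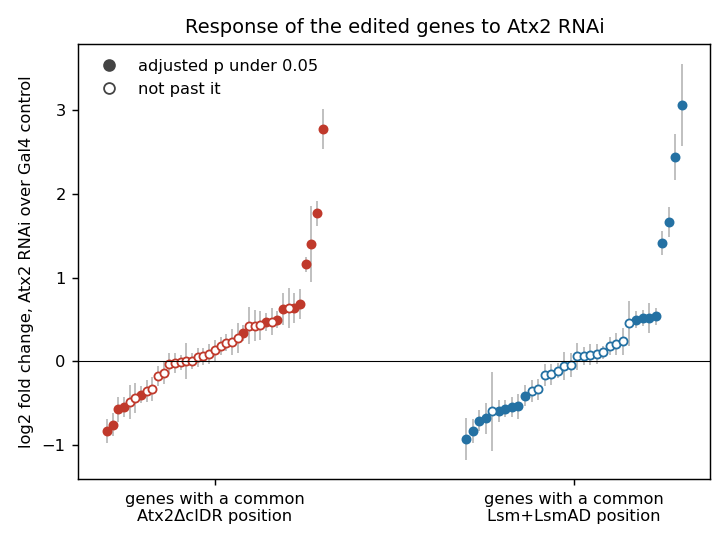
Log2 fold change (Atx2 RNAi over Gal4 control) of each tested gene with a common position in Atx2ΔcIDR (left, 39 genes) or Lsm+LsmAD (right, 34 genes), sorted within each form; bars are SE and filled points passed an adjusted p of 0.05 in edgeR. Filled points lie on both sides of 0 in both forms.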

How the data were processed

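The authors aligned the TRIBE reads with TopHat2 and deposited, per library, the positions past a minimum read depth and edit level against control brains, as a percent of edited reads (lowest deposited value 15%). For brain RNA-seq the authors deposited raw counts per gene made with STAR and HTSeq. Per the labels, the build was dm6. A position under several genes was counted once. Older gene symbols were matched through synonyms, which placed 215 of 215 genes of the 4 libraries in the Ensembl 115 annotation. Region precedence was 3′UTR, coding sequence, 5′UTR, other exon, intron. Common means listed in both libraries of a form. Library values were compared by exact permutation tests. Positions in all 4 libraries were compared with limma 3.58.1 on the percent scale. RNA-seq counts were compared with edgeR 4.0.16 (TMM, filterByExpr, quasi-likelihood, Benjamini-Hochberg adjustment), and with DESeq2 1.42.0 as an alternative. Lines naming no gene held 15.9 to 34.6% of counts and were left out. Scripts were tested on simulated data, where edgeR recovered most changed genes. Alternatives were thresholds of 20% and 30%, other normalisations and filters, a replicate block and leaving out each library. Named genes were those in all 4 libraries, the 10 highest in 1 form only, those with 2 or more common positions, the largest differences, and listed pathways. The members and lists were chosen with earlier results of these data known. The S2 cell libraries were not used here. Neither study values nor columns of the authors' comparisons were used. The 2 forms had the same replicate numbers, and the labels do not say whether these pair anything.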

Additional observations from a re-analysis of the deposited data

How the results depend on the processing

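For positions listed per library, the difference of 10.5 became -12.0 at 20% or more and -12.5 at 30% or more, and ranged from -3.50 to 24.5 when a library was left out, the lowest without Atx2ΔcIDR replicate 2. For the median edit percent, only the 30% minimum turned the direction (2.94), and it ranged from -8.60 to -2.93 when a library was left out. Positions common to both forms numbered 0 at 20% and 0 at 30%, 38 when 1 library of a form was enough, and 5 to 14 when a library was left out. Genes in Atx2ΔcIDR only numbered 15 at 20%, 8 at 30% and 96 when 1 library was enough, with 26 to 67 when a library was left out; genes in Lsm+LsmAD only numbered 13 at 30% and 83 when 1 library was enough, with 28 to 56. Shared positions past the limma threshold numbered 2 with the trend and 0 to 2 when a library was left out; a minimum of 20% or 30% left none to test. At Usp12-46 the difference was -7.75 without Atx2ΔcIDR replicate 1 and 36.2 without Atx2ΔcIDR replicate 2. With the replicate number as a block, 0 of the 5 passed. Deviations of same-numbered libraries correlated at r = 0.19 over 5 positions, too few to show a pairing or its absence. The numbers were not treated as a pairing. The RNAi counts of Atx2ΔcIDR genes were 17 higher with library size alone and 8 lower with DESeq2's Wald test, and ranged over 5 to 11 higher and 3 to 8 lower when a library was left out. Over all genes, library size alone gave 935 lower and moved the median log2 fold change to 0.27, and leaving out a library gave 1388 to 2154 higher and 1144 to 1816 lower. The replicate block in edgeR gave 7 higher and 4 lower for Atx2ΔcIDR genes and 7 and 7 for Lsm+LsmAD genes; same-numbered libraries correlated at -0.13, -0.21 and -0.06, and under the block Akh (adjusted p = 0.096) and Thd1 (0.062) were no longer called. Region shares stayed within their intervals under both alternative rules. Alternatives for the chromosome 3 share and the runs were chosen after seeing the data. The chromosome 3 share of Atx2ΔcIDR was 76.4% when 1 library was enough. Runs with gaps of at most 100 kb held 13 Atx2ΔcIDR and 11 Lsm+LsmAD positions, beside 36 of 312 in Atx2 WT. The cause of these changes was not tested. Read depth behind each position is unknown, which limits every level and every absence.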
